A study of Mus musculus with 3 samples.

Results

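Ion channel genes were examined in sorted perivascular and stromal cells of the mid-gestation mouse embryo. They were taken as the protein-coding genes whose symbols begin with the stems for potassium channels (Kcn), voltage-gated calcium channels (Cacn), voltage-gated sodium channels (Scn and a digit), TRPC, TRPM and TRPV cation channels, CLC chloride channels and exchangers (Clcn), anoctamins (Ano) and Piezo channels, less 1 Kcn gene that the rule leaves out. The rule used names only, not measured values, and found 176 of the 47069 genes of the table. They comprise 93 potassium channel genes, 26 calcium channel genes, 14 sodium channel genes, 22 TRP genes, 19 chloride genes and 2 Piezo genes. Auxiliary subunits are included, and so is Trpc4ap, a TRPC4-associated protein that is not itself a channel.

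Bulk RNA-seq was made from the aorta-gonad-mesonephros (AGM) region of wild-type embryos of the C57BL/6J strain at embryonic day (E) 11, after cells carrying CD31, CD45 or cKit had been gated out. Double-positive (DP) cells carried the proteoglycan NG2 and the receptor PDGFRβ and are labelled as vascular smooth muscle. PDGFRβ-single (PDGFRβ-S) cells had PDGFRβ but no NG2. Double-negative (DN) cells are labelled as stroma lacking both markers, although the study describes their PDGFRβ as low or negative. No genotype or treatment distinguished the populations, and embryos of a litter were pooled within a sample. Each population gave 1 library, so there is no replicate error, no test was made, and every difference describes these 3 libraries.

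Potassium channels set the resting potential of a cell and pull it back after depolarization. In arterial smooth muscle, depolarization opens voltage-gated calcium channels and the calcium that enters drives contraction, while potassium channels oppose it. TRP, chloride and mechanosensitive channels adjust the membrane potential in response to stretch, calcium and receptor signals. In neurons, sodium channels carry the action potential, and in skeletal muscle a dedicated calcium channel complex couples excitation to contraction.

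Values are TPM, in which the reads of each gene are divided by its length and every library adds up to 1000000. The reads behind them were recovered from the table and came to about 10870000 for DP, 9620000 for PDGFRβ-S and 11720000 for DN. Intervals of a TPM are exact Poisson intervals and intervals of a TPM ratio are exact binomial ones, both at 95%. They cover counting error only, and say nothing of variation between embryos or sorts. A count of 0 in a gene of 2 kb allows up to 3 reads, or 0.388 TPM in DP against 0.325 in PDGFRβ-S and 0.305 in DN. Nuclear protein-coding genes held 56.5% of the TPM in DP, against 43.4% in PDGFRβ-S and 46.3% in DN, so values of any gene depend on what else is in the library. Mitochondrial genes held 10.4% in DP against 25.5% and 24.4%, and 7 erythroid markers added up to 1438 TPM in DP against 18830 and 19070, all 7 lower in DP than in DN. Their part in the DP comparisons was not tested beyond the rescalings given below. In the 4498 genes with at least 10 TPM throughout, log2 ratios had a median of 0.12 for DP over DN, -0.22 for PDGFRβ-S over DN and 0.32 for DP over PDGFRβ-S, and the ratios below are to be read against these shifts.

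The labels were set against marker genes. The 10 contractile smooth muscle genes on the list used here added up to 8960 TPM in DP against 393.7 in PDGFRβ-S and 202.6 in DN, and Cspg4, which encodes NG2, stood at 10.5, 0.485 and 1.31 TPM in the same order. Pdgfrb was at 35.1 TPM in DP against 14.3 in PDGFRβ-S and 7.32 in DN, so the DN library was not free of it. The 8 endothelial markers added up to 5.77 TPM in DP against 4.28 in PDGFRβ-S and 6.59 in DN. Cdh5, Tie1 and Sox17 were at 0 throughout, while Kdr had 1.58, 1.53 and 1.16 TPM and Tek 2.36 TPM in DP. Emcn had 1.74, 2.09 and 0.715 TPM, and Cldn5 was at 4.45 TPM in DN and at 0 in the other libraries. In bulk samples, fewer cells of a type and less RNA per cell cannot be told apart.

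Most channel genes were low or silent in these cells. Of the 176 genes, 75 reached 1 TPM in at least 1 library, which is 42.6% against 60.5% of all protein-coding genes, and 25 were listed at 0 in all 3. The number at 1 TPM or more was 44 in DP against 44 in PDGFRβ-S and 65 in DN. Only 31 reached 1 TPM in every library, 19 reached 5 TPM in any library, and 10 reached 10 TPM. DN thus had the most members at 1 TPM, but at 2 TPM the counts were 30 for DP, 25 for PDGFRβ-S and 32 for DN. Of the 46 members at 2 TPM in any library, 20 were highest in DP and 20 in DN. The summed level was largest in DP, 403.1 TPM in DP against 212.7 in PDGFRβ-S and 301.6 in DN. Kcns3 gave 66.0 TPM of the DP sum and 1.19 of the DN sum, and Trpc4ap, not itself a channel, 24.7 and 5.85. The sums were not rescaled, and nuclear protein-coding genes held a larger share of the TPM in DP than in DN. A share of the DN breadth came from low genes, since 41 members were at 0 in DP but not in DN, and 7 the other way round.

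**Figure D1:**
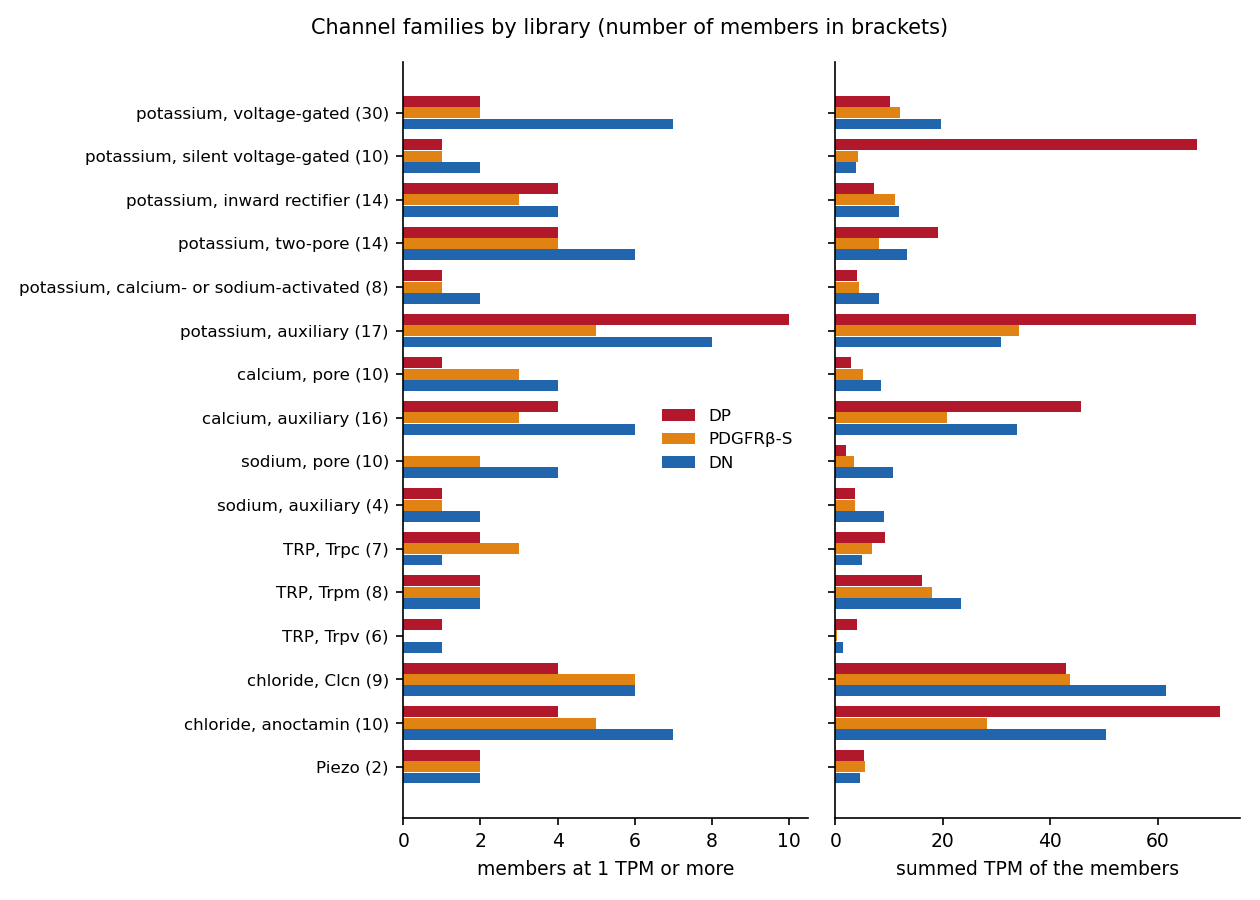
Number of members at 1 TPM or more (left axis panel) and their summed TPM (right axis panel) in each channel family, with 1 bar per library. DN had the most voltage-gated potassium and sodium channel genes detected, while DP had the largest sums for silent potassium channel subunits (67.3 TPM against 4.28 in PDGFRβ-S and 3.77 in DN) and anoctamins.

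The same libraries were then compared in pairs. A gene was called higher or lower when log2((TPM + 1)/(TPM + 1)) reached 2-fold and the higher value was 2 TPM or more. Between DP and DN, 44 members had that level. Of these, 14 were higher in DP (31.8%, against 16.9% of all protein-coding genes) and 11 were lower (25%, against 14.9%). Called members thus made up a larger share than among all genes in both directions, and the median of the members, -0.05 on the log2 scale, lay close to that of all protein-coding genes, 0.02. In all 25, the counting interval of the ratio left out 1. Except for Kcnk1, Kcne1l, Cacnb3, Trpc4ap and Clcn5, the called members reached 2 TPM in only 1 of the 2 libraries. For these the level rule favoured calls in the direction seen. Rescaling TPM to nuclear protein-coding genes raises all values and lets more genes pass 2 TPM. It also moved the median log2 ratio of the 4498 genes with at least 10 TPM throughout from 0.12 to -0.17. The split was then 15 higher and 33 lower, and rescaling without the 20 highest genes gave 14 and 20.

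**Figure D2:**
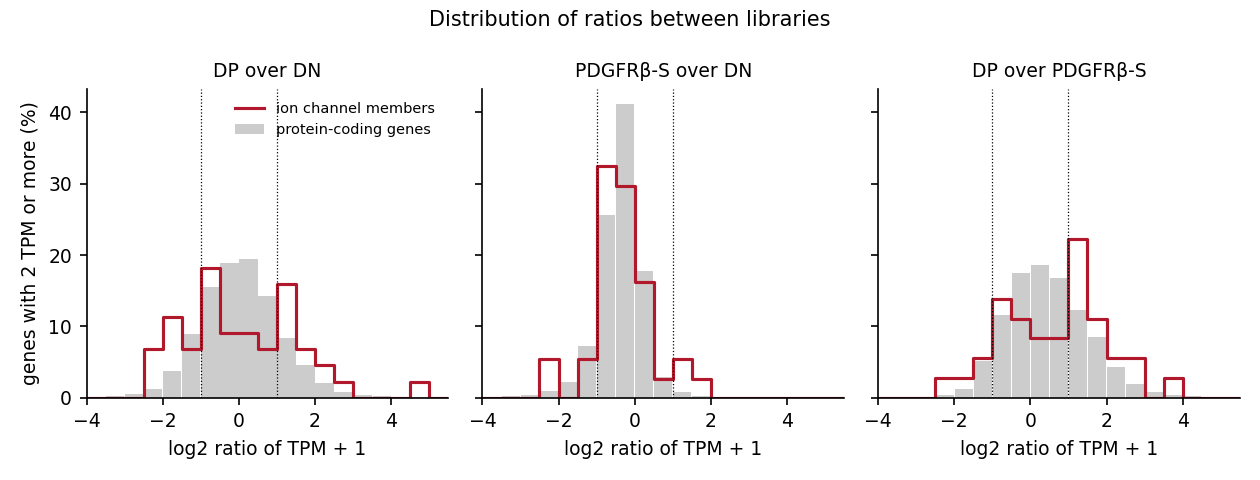
Percentage of genes at 2 TPM or more in either library per bin of the log2 ratio of TPM + 1, for ion channel members (red outline) and all protein-coding genes (grey bars), in the 3 comparisons. Dotted lines mark the 2-fold limit. Between DP and DN the members show 2 shoulders beyond the limits, with 14 genes above and 11 below.

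DP against PDGFRβ-S separates NG2-positive from NG2-negative cells among those carrying PDGFRβ. At this level were 36 members, of which 17 were higher in DP (47.2%, against 28.6% of protein-coding genes) and 4 were lower (11.1%, against 7.04%), with a median log2 ratio of 0.86 against 0.38. This comparison depended on the scaling: 10 of the 17 remained higher under all 4 other scalings tried, and scaling to nuclear protein-coding genes gave 14 higher and 15 lower. With quantile normalization it was 11 and 7, with centring on well-detected genes 10 and 6, and without the 20 highest genes 16 and 7. PDGFRβ-S and DN gave the fewest calls. Of 37 members at this level, 3 were higher in PDGFRβ-S (8.11%, against 1.21% of protein-coding genes) and 4 lower (10.8%, against 11.1%), with medians of -0.38 and -0.34. The split of 3 and 4 became 4 and 20 when scaled to nuclear protein-coding genes, 3 and 9 without the 20 highest genes, 4 and 2 with quantile normalization, and 3 and 2 with centring.

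**Figure D3:**
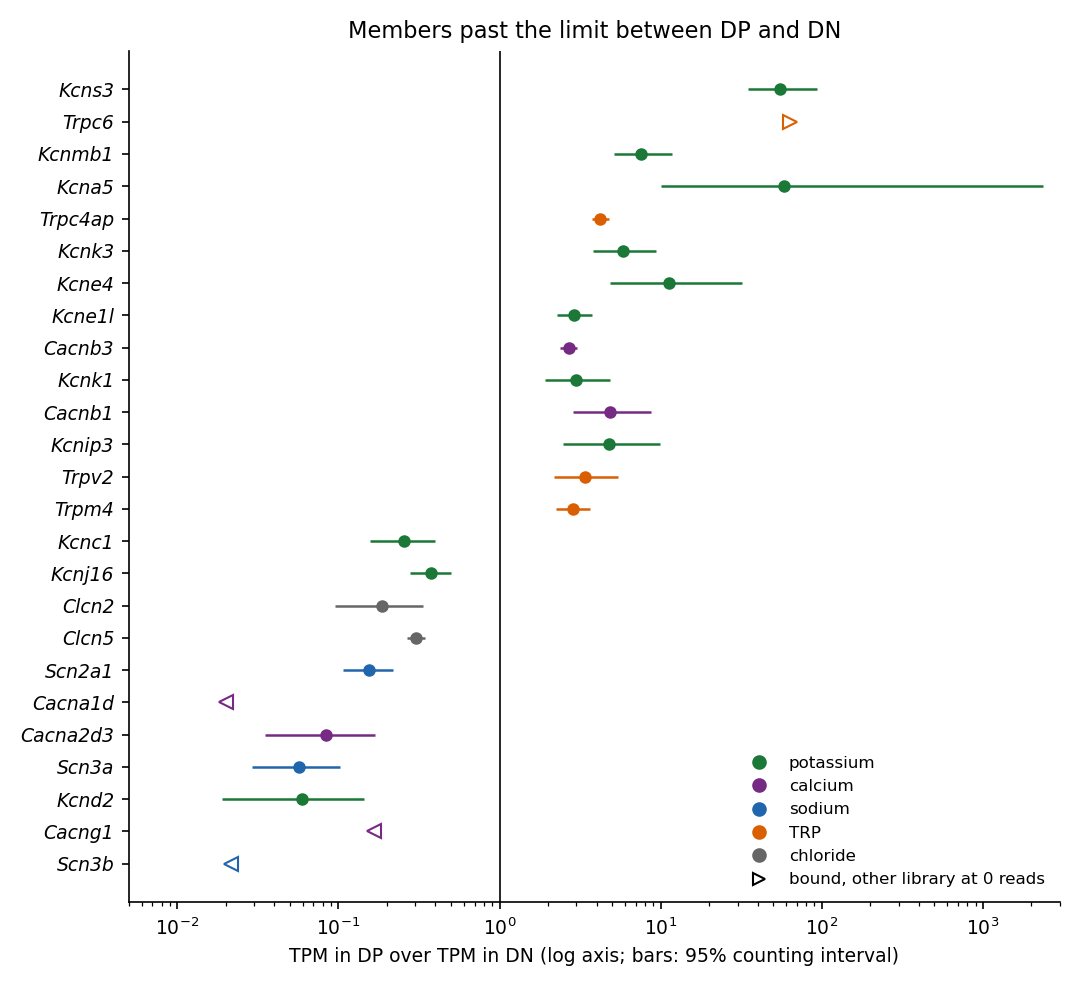
TPM in DP divided by TPM in DN for the 25 members past the limit, on a log axis, coloured by ion, with 95% counting intervals. Open triangles are bounds computed with 3 reads where the other library had 0. Kcns3 stood at 55.2 with an interval of 34.7 to 93.7, while sodium channel genes are found only among the lower members.

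Closest to the limit between DP and DN, but inside it, were Ano10 (log2 ratio 0.70) and Kcnk6 (-0.96), and just past it were Trpm4 (1.10) and Kcnc1 (-1.04). Trpm4 was no longer called after centring, and Kcnc1, Kcnj16 and Cacna1d after quantile normalization. The other 13 members higher in DP and the other 8 lower in DP kept their call under all 4 scalings tried.

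Of 17 potassium channel genes at level between DP and DN, 8 were higher in DP (47.1%, against 16.9% of all protein-coding genes). Another 3 were lower (17.65%, against 14.9%). Except for Kcne1l and Kcnk1, the 8 reached 2 TPM in DP but not in DN, so they were at level through DP alone. The 3 lower ones were at level through DN alone. The level rule thus favoured calls in the direction seen, and these counts only describe the family. With 93 of the 176 members, potassium channels were also the largest family. Their pore is lined by a conserved signature, threonine, then isoleucine, leucine or valine, glycine, tyrosine or phenylalanine, and glycine, whose backbone strips water from potassium ions. Read in frame in the longest coding transcript of each gene in GENCODE M21, it was found in 63 of the 76 pore-forming members (82.9%, against 0.471% of all protein-coding genes), and 2 times in 11 of the 14 tandem-pore (K2P) members. The 13 without a match are 7 of the Kcnh genes, Kcnn1, Kcnn2, Kcnn3, Kcnj14, Kcnk1 and Kcnk7, and for these it says only that this spelling is absent from the transcript read. The coding strand around it is shown for the called pore-forming genes that hold it, because genes called higher and genes called lower in DP both include matches to this pattern. Kcnk1, also higher in DP, has none. The codons of the signature are in capitals.
Kcns3, higher in DP, chr12:11091560-11091604, minus strand: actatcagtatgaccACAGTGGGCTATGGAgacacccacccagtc
Kcna5, higher in DP, chr6:126533730-126533774, minus strand: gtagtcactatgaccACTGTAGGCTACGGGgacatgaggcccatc
Kcnk3, higher in DP, its later pore, chr5:30622187-30622231, plus strand: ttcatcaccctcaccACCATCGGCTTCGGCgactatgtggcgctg
Kcnd2, lower in DP, across an exon junction between chr6:21217391 and 21714156, plus strand: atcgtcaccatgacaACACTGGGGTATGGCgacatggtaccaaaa
Kcnc1, lower in DP, chr7:46427958-46428002, plus strand: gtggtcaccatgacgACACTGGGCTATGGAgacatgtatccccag
Kcnj2, higher in PDGFRβ-S, chr11:111072192-111072236, plus strand: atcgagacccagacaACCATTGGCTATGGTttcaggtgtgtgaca
Kcnj16, lower in DP, chr11:111024889-111024933, plus strand: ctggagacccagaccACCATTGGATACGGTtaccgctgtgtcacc
All coordinates are on GRCm38, the assembly the table uses as mm10.

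Kcns3 had the highest TPM of all 176 genes. It encodes Kv9.3, a silent subunit that forms no channel alone and changes the behaviour of Kv2 channels when it joins them. Its level was 66.0 TPM in DP (781 reads), 3.69 in PDGFRβ-S (52 reads) and 1.19 in DN (18 reads). DP was thus 55.2-fold above DN (interval 34.7 to 93.7) and 17.9-fold above PDGFRβ-S (13.5 to 24.2), and PDGFRβ-S was 3.09-fold above DN (1.78 to 5.61), so the libraries are ordered from DP to DN with no overlap of their counting intervals. No other silent subunit reached 2 TPM.

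Kcna5 encodes Kv1.5, a delayed rectifier of arterial and pulmonary smooth muscle. It had 46 reads in DP and 1 read in each of the others, or 4.15 TPM against 0.0758 in PDGFRβ-S and 0.0709 in DN. The ratio to DN was 58.6 with an interval of 9.999 to 2363, so its size is loosely fixed. Among the 30 voltage-gated pore genes it was the only one called higher in DP.

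Kcnd2 and Kcnc1 went the other way. Kcnd2 encodes Kv4.2, which carries transient A-type current in neurons and heart. It stood at 0.251 TPM in DP (5 reads), 4.46 in PDGFRβ-S (106 reads) and 4.22 in DN (107 reads), which is 17.8-fold (7.39 to 55.9) and 16.8-fold (6.98 to 52.8) below the other libraries. Its levels in the NG2-negative libraries did not differ beyond counting error. Kcnc1, which encodes the fast Kv3.1 channel, was at 0.558, 1.56 and 2.19 TPM, and DN exceeded DP 3.93-fold (2.52 to 6.37). The Kv7 genes Kcnq5 and Kcnq1 were low in every library, with 0.434, 0.228 and 0.483 TPM for Kcnq5 and under 0.2 TPM throughout for Kcnq1.

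Inward rectifiers hold the resting potential near the potassium equilibrium. Kcnj2, which encodes Kir2.1, was highest in PDGFRβ-S, at 3.83 TPM (96 reads) against 1.28 in DP (27 reads) and 1.34 in DN (36 reads). The PDGFRβ-S level was 2.98-fold above DP (1.93 to 4.76) and 2.85-fold above DN (1.92 to 4.30), while DP and DN did not differ beyond counting error. Kcnj16, which encodes Kir5.1, had 1.98, 3.32 and 5.25 TPM and was 2.66-fold higher in DN than in DP (2.00 to 3.58).

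K2P channels give the background potassium leak. Kcnk3 (TASK-1), a leak channel of pulmonary artery muscle, had 7.18 TPM in DP against 1.16 in PDGFRβ-S and 1.22 in DN, and its DP level was 5.88-fold that of DN (3.82 to 9.36). Kcnk1 (TWIK-1) had 7.41, 1.70 and 2.47 TPM and was 3.00-fold above DN (1.90 to 4.85). Both were alike in the NG2-negative libraries within their counting intervals. Kcnk6 (TWIK-2) had the opposite order, with 2.09 TPM in DP against 3.77 in PDGFRβ-S and 5.02 in DN, and stayed within the limit.

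Calcium-activated channels of large conductance (BK) consist of a pore subunit encoded by Kcnma1 and beta subunits that tune its calcium sensitivity. Kcnmb1, the beta subunit of smooth muscle, had 10.7 TPM in DP (173 reads), 0.983 in PDGFRβ-S (19 reads) and 1.41 in DN (29 reads). It was 7.59-fold above DN (5.10 to 11.7) and 10.9-fold above PDGFRβ-S (6.74 to 18.5). The pore did not follow its partner, with Kcnma1 at 0.373 TPM in DP (30 reads), 0.0834 in PDGFRβ-S (8 reads) and 0.936 in DN (96 reads). Kcnmb4, the beta subunit of neurons, had 4.12, 7.80 and 6.31 TPM and was not called, and 20.9% of its exon bases overlap the antisense gene Kcnmb4os2 and 10.7% Kcnmb4os1, whose reads cannot be parted from its own. The small- and intermediate-conductance genes Kcnn3 and Kcnn4 stayed under 1 TPM in all libraries.

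Other auxiliary genes of potassium channels were also high in DP. Kcne1l (listed elsewhere as Kcne5), a small membrane subunit that inhibits Kv7.1, had 36.9 TPM in DP against 16.7 in PDGFRβ-S and 12.6 in DN. It was 2.92-fold above DN (2.28 to 3.75) and 2.20-fold above PDGFRβ-S (1.76 to 2.78), but the call over PDGFRβ-S was lost under each of the 4 other scalings. Kcne4, a related subunit known to dampen Kv1 channels, had 3.07 TPM in DP against 0.728 and 0.273, and 11.2-fold the DN level (4.84 to 32.0). Kcnip3, a calcium-binding partner of Kv4 channels, had 2.85, 1.12 and 0.598 TPM and was 4.77-fold above DN (2.48 to 9.91). In all, 4 of the 7 auxiliary potassium genes at level were higher in DP than in DN and none was lower, and among the 10 pore-forming genes at level 4 were higher and 3 lower, against 16.9% higher and 14.9% lower among all protein-coding genes. Of these called genes, only Kcne1l and Kcnk1 reached 2 TPM in both libraries, so the level rule favoured the calls seen.

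**Figure D4:**
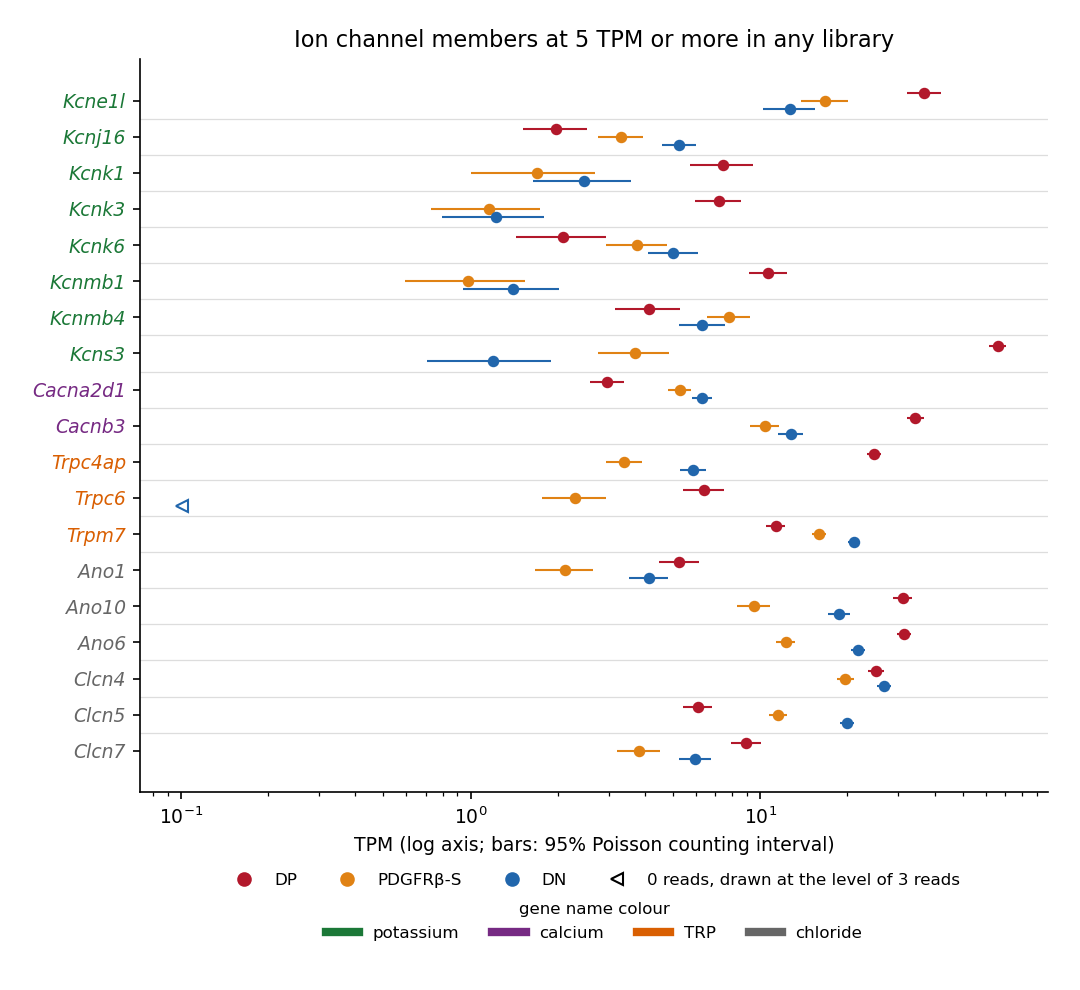
TPM of the 19 members that reached 5 TPM in any library, on a log axis, with 1 point per library and 95% Poisson counting intervals, grouped by ion through the colour of the gene names. Kcns3 spans the widest range among genes detected in all 3 libraries, from 1.19 TPM in DN to 66.0 in DP, while Clcn4 is nearly level.

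Calcium channel genes went both ways between DP and DN. Of 7 at level, 2 were higher in DP (28.6%, against 16.9% of all protein-coding genes) and 3 were lower (42.9%, against 14.9%). Of the 6 auxiliary genes at level, Cacnb3 and Cacnb1 were higher in DP and Cacna2d3 and Cacng1 lower, and the 1 pore at level, Cacna1d, was lower. The β subunits bring the pore to the membrane. Cacnb3 had the highest TPM of the calcium channel genes, at 34.3 TPM in DP (828 reads), 10.4 in PDGFRβ-S (298 reads) and 12.7 in DN (392 reads). Its DP level was 2.69-fold that of DN (2.38 to 3.04) and 3.31-fold that of PDGFRβ-S (2.90 to 3.79). Cacnb1, the β subunit of skeletal muscle that other tissues also use, had 2.83, 0.689 and 0.580 TPM and was 4.88-fold above DN (2.87 to 8.71). No pore gene was called higher in DP. Cacna1c, the L-type channel through which adult arterial muscle takes up calcium, was at 0.104 TPM in DP (13 reads), 0.638 in PDGFRβ-S (95 reads) and 0.258 in DN (41 reads), and Cacna1h, a T-type channel, was at 0.917, 1.16 and 1.63 TPM. DP therefore had the lowest level of Cacna1c of the 3 libraries, beside the highest contractile gene levels.

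Cacna1d, the L-type channel of neuroendocrine and pacemaker cells, had no read in DP against 36 in PDGFRβ-S and 190 in DN, or 0, 0.422 and 2.09 TPM. DN was 49.7-fold higher than DP with DP set at 3 reads, and 4.94-fold higher than PDGFRβ-S (3.44 to 7.27). Cacna2d3, a neuronal α2δ subunit, had 0.280, 0.880 and 3.35 TPM and was 11.98-fold higher in DN than in DP (5.89 to 28.4). The more widely expressed Cacna2d1 was within the limit, at 2.97, 5.29 and 6.29 TPM. Cacng1, the γ subunit of the skeletal muscle channel, was found in DN alone, with 23 reads or 3.74 TPM against 0 reads in the other 2 libraries. Set against 3 reads, DN was 6.02-fold above DP and 7.18-fold above PDGFRβ-S, with lower limits of the exact intervals at 4.515 and 5.381. The calls of Cacna1d and Cacna2d3 against PDGFRβ-S were lost with quantile normalization and with centring.

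Sodium channel genes were highest in DN without exception among the called ones. None of the 10 pore genes reached 1 TPM in DP, against 2 in PDGFRβ-S and 4 in DN. Scn2a1 (Scn2a), which encodes Nav1.2 of central neurons, had 0.594 TPM in DP against 1.45 in PDGFRβ-S and 3.84 in DN, and Scn3a, which encodes Nav1.3 of the embryonic nervous system, had 0.179, 1.11 and 3.13. DN exceeded DP 6.47-fold for Scn2a1 (4.59 to 9.37) and 17.5-fold for Scn3a (9.84 to 34.2). The auxiliary gene Scn3b had 0 reads in DP against 3 in PDGFRβ-S and 176 in DN, or 0, 0.0846 and 4.65 TPM. DN was 46.1-fold above DP with DP set at 3 reads, and 54.9-fold above PDGFRβ-S (18.5 to 269). Scn2b, by contrast, was level at 3.62, 3.44 and 4.19 TPM.

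Neuronal markers were also highest in DN. The 14 sympathetic and neuronal genes on the list used here added up to 34.2 TPM in DP against 24.3 in PDGFRβ-S and 397.5 in DN. Between DP and PDGFRβ-S the order of this sum was not that of Scn2a1 and Scn3a. These had 0.594 and 0.179 TPM in DP against 1.45 and 1.11 in PDGFRβ-S. Of the 14 markers, 7 were at 0 in DP and 8 in PDGFRβ-S, among them Th, Dbh, Chga, Stmn3 and Ina in both, and none was at 0 in DN. The part of neuronal cells in the sodium and calcium channel levels of DN was not tested. Of the 5 neuronal channel genes at level between PDGFRβ-S and DN, only Scn3b was called lower in PDGFRβ-S, while Scn2a1, Scn3a, Kcnc1 and Kcnd2 were within the limit. The 11 skeletal muscle markers added up to 389.8 TPM in DP against 50.4 in PDGFRβ-S and 257.7 in DN, but Acta1 alone gave 372.3 TPM of the DP sum. Of the 11, 4 were at 0 in DP, and others were found there. Tnnt1 had 7.96 TPM in DP against 15.6 in DN, and Myod1 3.35 against 17.4. Myog, the myogenic factor of differentiating muscle, was at 38.0 TPM in DN and at 0 in the other libraries, where Cacng1 was also at 0. The part of such cells in the Cacng1 reads was not tested.

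Of 6 TRP genes at level between DP and DN, 4 were higher in DP (66.7%, against 16.9% of all protein-coding genes). None was lower, against 14.9% of all protein-coding genes. Trpc4ap, which is not itself a channel, is among the 4. The others, Trpc6, Trpm4 and Trpv2, reached 2 TPM in DP but not in DN, so they were at level through DP alone. The level rule thus favoured calls in the direction seen, and these counts only describe the family. Trpc6, a receptor-operated cation channel of vascular smooth muscle, had 6.40 TPM in DP (150 reads), 2.29 in PDGFRβ-S (64 reads) and 0 in DN (0 reads). With DN set at 3 reads, it was 63.6-fold higher in DP and 22.8-fold higher in PDGFRβ-S than in DN. DP was 2.79-fold above PDGFRβ-S (2.07 to 3.80). Trpc6 was thus found in both PDGFRβ-positive libraries and not at this depth in DN. The call of DP over PDGFRβ-S was lost under 3 of the 4 other scalings.

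The RefSeq promoter of Trpc6 is shown because it holds a CArG box, the motif bound by serum response factor in contractile genes, in capitals. The window runs from 250 bases before to 50 bases after the start, chr9:8543892-8544191 on GRCm38.p6, plus strand, and the box lies 122 to 113 bases upstream.
Trpc6 promoter: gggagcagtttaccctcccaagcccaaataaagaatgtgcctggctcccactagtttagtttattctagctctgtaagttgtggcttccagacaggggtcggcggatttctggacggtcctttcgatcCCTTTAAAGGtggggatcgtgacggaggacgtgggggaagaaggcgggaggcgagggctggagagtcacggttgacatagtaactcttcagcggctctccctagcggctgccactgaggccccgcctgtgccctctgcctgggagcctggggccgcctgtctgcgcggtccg
Promoters were found for 134 members, 181 windows in all, and 2 windows held the motif, those of Trpc6 and Trpv1 (1.10%, against 1.63% of all 32851 promoters). For 12 of the 14 genes higher in DP a window was found, and Trpc6 was the only one with the motif. The box is its own reverse complement, so both strands were searched, and a match describes these letters only.

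Of the other TRP genes, Trpm4, a calcium-activated channel that lets sodium in and depolarizes arterial muscle, had 4.51 TPM in DP against 1.07 in PDGFRβ-S and 1.58 in DN. It was 2.85-fold above DN (2.24 to 3.66) and 4.20-fold above PDGFRβ-S (3.16 to 5.65). Trpv2, a cation channel linked to stretch in vascular muscle, had 75 reads in DP against 1 in PDGFRβ-S and 28 in DN, or 3.46, 0.0387 and 1.01 TPM, and its DP level was 3.41-fold that of DN (2.18 to 5.47). Trpv4 had 11, 0 and 4 reads. Trpm7, a channel fused to a kinase and used by most cells for magnesium, had the highest TPM of the TRP channels and the reverse order, with 11.3, 16.0 and 21.01 TPM, within the limit. Trpc1 was under 0.4 TPM in all libraries. Trpc4ap had 24.7, 3.39 and 5.85 TPM and was 4.22-fold above DN (3.76 to 4.76) and 7.29-fold above PDGFRβ-S (6.27 to 8.52).

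No chloride gene was called higher in DP than in DN, against 16.9% of all protein-coding genes. Of the 9 at level, 2 were lower (22.2%, against 14.9%). Anoctamins include calcium-activated chloride channels and lipid scramblases. Ano6, a scramblase, had 31.4 TPM in DP against 12.2 in PDGFRβ-S and 21.7 in DN, and Ano10 had 31.03, 9.51 and 18.7. Ano1, the calcium-activated chloride channel of smooth muscle and pacemaker cells, had 5.25, 2.12 and 4.13 TPM. PDGFRβ-S had the lowest level of all 3 genes, and DP exceeded it 2.57-fold for Ano6 (2.34 to 2.82), 3.26-fold for Ano10 (2.80 to 3.81) and 2.48-fold for Ano1 (1.88 to 3.29). The Ano1 call was lost under each of the 4 other scalings and the Ano6 call under 3 of them. None of the 3 was called between DP and DN.

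CLC genes encode plasma membrane chloride channels and the chloride-proton exchangers of endosomes and lysosomes. Clcn4, an endosomal exchanger, was close to level at 25.1, 19.7 and 26.8 TPM, and 11.5% of its exon bases overlap an antisense gene. Clcn5, an endosomal exchanger of the kidney, had 6.08, 11.5 and 19.9 TPM in the same order of libraries, and DN was 3.28-fold above DP (2.89 to 3.73). Clcn2, a plasma membrane channel, had 0.617 TPM in DP against 3.34 in PDGFRβ-S and 3.32 in DN, and DP was 5.42-fold below PDGFRβ-S (3.01 to 10.6) and 5.38-fold below DN (2.99 to 10.5). Clcn6, of late endosomes, was 9.23-fold lower in DP than in PDGFRβ-S (4.83 to 19.8), with 10, 110 and 69 reads. Clcn7, the lysosomal exchanger, had 8.93, 3.81 and 5.97 TPM and was 2.34-fold higher in DP than in PDGFRβ-S (1.90 to 2.89), a call lost under all 4 other scalings. Clcn3 had 1.61, 1.85 and 3.49 TPM and was not called.

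Piezo1 and Piezo2, the stretch-gated channels, were not called. Piezo1 had 1.89 TPM in DP against 1.31 in PDGFRβ-S and 1.34 in DN, and 24.6% of its exon bases overlap the gene Ctu2 on the other strand. Piezo2 had 3.52, 4.20 and 3.17 TPM and was the highest of the 125 members that were not singled out by level or call, 34 of which reached 1 TPM.

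The members were also counted by the tissue in which textbooks place them, on lists made with earlier results of these data known. Of 8 channel genes of skeletal muscle, 2 were at level between DP and DN, Cacnb1 higher in DP and Cacng1 lower. Their median log2 ratio was -0.48. Of 26 channel genes of smooth muscle, 12 were at level between DP and DN, and 7 were higher in DP (Kcna5, Kcnk3, Kcnmb1, Cacnb3, Trpc6, Trpm4 and Trpv2) with none lower, against 16.9% higher and 14.9% lower among all protein-coding genes. The median log2 ratio was 1.12 against 0.02. Except for Cacnb3, the 7 reached 2 TPM in DP but not in DN, so they were at level through DP alone. The remaining ones at level include Cacna2d1, Trpm7, Ano1 and Clcn3, and the pores Cacna1c and Kcnma1 were not at level. Of 20 channel genes of neurons, 5 were at level and all 5 were lower in DP (Scn2a1, Scn3a, Scn3b, Kcnc1 and Kcnd2). Their median log2 ratio was -1.81. All 5 reached 2 TPM in DN and none did in DP, so they were at level through DN alone. The level rule itself thus favoured calls in the direction seen, and these counts and medians only describe the lists. The 7 epithelial markers added up to 254.3 TPM in DP against 16.0 in PDGFRβ-S and 45 in DN, mostly through Krt8 (149.6, 4.93 and 8.32) and Krt18 (87.3, 6.97 and 14.4). Of the 6 at level between DP and DN, 3 were higher in DP, whereas Epcam had 6.34 TPM in DP and 9.06 in DN, Gata3, which the neuronal list also holds, 4.45 and 6.65, and Cldn6 4.12 and 6.20. Cdh1 was at 0 in DP and in PDGFRβ-S. The 6 mesothelial and gonadal markers added up to 55.1, 14.5 and 23.7 TPM, with Upk3b at 27.7, 1.84 and 5.06, and Msln was at 0 throughout. The part of such cells in the members higher in DP was not tested.

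Between them, the 3 libraries gave 13 genes that were higher in DP than in both others (Kcns3, Kcna5, Kcnk1, Kcnk3, Kcnmb1, Kcne1l, Kcne4, Cacnb1, Cacnb3, Trpc6, Trpm4, Trpv2 and Trpc4ap). Of their calls over PDGFRβ-S, that of Kcne1l was lost under all 4 other scalings, that of Trpc6 under 3, that of Cacnb1 under 2 and that of Kcne4 under 1, and Trpm4 lost its call over DN under 1. Another 4 were higher in DN than in both others (Cacna1d, Cacna2d3, Cacng1 and Scn3b). Clcn2 and Kcnd2 were lower in DP than in both, and Kcnj2 alone was higher in PDGFRβ-S than in both. As these pairs of comparisons share a library, they are not independent counts. The shares of all protein-coding genes given above are for single comparisons. No share was counted for genes called in both comparisons of a pair. Whether these sets are larger than among all protein-coding genes was therefore not tested.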

How the data were processed

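Cells were sorted into lysis buffer, a Smart-seq2-type protocol turned polyadenylated RNA into cDNA without strand or molecular identifiers, and libraries were sequenced as short single reads. The authors deposited TPM per Ensembl gene, with a column for each library. TopHat2 2.0.10 and mm10 are the aligner and build named in the submitters' processing notes. The study's methods name Cufflinks for TPM of RefSeq transcripts and, separately, summarizeOverlaps for read counts over GENCODE genes. They do not say which of these gave the deposited TPM, whose rows are Ensembl genes. A second sheet of 4 columns was not used.

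Reads were recovered after the data had been seen, as TPM multiplied by gene length over 1 constant per library. Of 8988 protein-coding genes with 50 to 5000 reads, 99.99% were whole within 0.002 of a read, and 0% of 899 with constants shifted by 3%. The length that fitted was the summed width of distinct exons, overlaps counted again, in 64.9% and the merged exon length in 5.91%. Where neither M21 length fitted, the shortest one that did was taken, so reads there are lower estimates. The length used was 0.81 to 3.34 times the merged one among members, so TPM understate genes with many overlapping isoforms and levels of different genes compare loosely, while ratios between libraries are unaffected.

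Ratios were log2((TPM + 1)/(TPM + 1)), called at 2-fold where the higher library had 2 TPM or more. Fold values in the text are plain TPM ratios. Bounds against 0 use 3 reads in that library and leave out the counting error of the other. The genes described are members at 5 TPM or more in any library, members called in any comparison, and the textbook smooth muscle channel list. Scn2b and Piezo2 were named after their values were seen. Members and lists were chosen with earlier results of these data known. A few genes that meet these rules are not reported here. Alternatives changed the pseudocount, the minimum level, the fold limit and the scaling. Procedures were tested on simulated data. Python 3.11.15, numpy 2.4.6, pandas 2.3.3, scipy 1.17.1 and matplotlib 3.10.9 were used.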

Additional observations from a re-analysis of the deposited data

How the results depend on the processing

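No paired analysis was possible because each population has 1 library, and none could be left out. Counts of called members were the most sensitive values, and the named members' log2 ratios kept their sign in all called cases (778 of 918 moved by less than their counting interval, 140 moved further, 0 reversed). For DP against DN (14 higher, 11 lower), the counts were 6 and 1 with a pseudocount of 5 TPM, 8 and 2 with at least 5 TPM, 7 and 7 at 3-fold, and 2 and 0 at 4-fold with 10 TPM. Lower members numbered 23 with at least 1 TPM and 23 with no filter, 33 after rescaling to nuclear protein-coding genes, with a median of -0.82, and 20 without the 20 highest genes. For PDGFRβ-S against DN (3 higher, 4 lower), both counts were 0 with a pseudocount of 5 TPM (median -0.21), with at least 5 TPM and at 4-fold with 10 TPM, and 1 and 2 at 3-fold. Lower members numbered 7 with a pseudocount of 0.1 TPM, 11 with at least 1 TPM or no filter, 20 after rescaling to nuclear protein-coding genes, 9 without the 20 highest genes, and 2 with quantile normalization (median 0.094) and with centring (median -0.16). For DP against PDGFRβ-S (17 higher, 4 lower), the counts were 6 and 0 with a pseudocount of 5 TPM, 9 and 2 at 3-fold, 3 and 0 at 4-fold with 10 TPM, and 11 and 7 with quantile normalization. Higher members numbered 10 with centring. Lower members numbered 0 with at least 5 TPM, 7 without the 20 highest genes, and 15 when scaled to nuclear protein-coding genes, with a median of -0.45. At 2 TPM instead of 1 TPM, the members detected were 30 for DP, 25 for PDGFRβ-S and 32 for DN. A higher minimum or fold limit leaves fewer genes by construction, and rescaling to a subset raises all TPM, so that more genes pass the minimum. It also shifts the ratios. Scaling to nuclear protein-coding genes moved the median log2 ratio of DP over DN from 0.12 to -0.17 in the 4498 genes with at least 10 TPM throughout. Other causes were not tested.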

Other observations

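Pumps and channels outside the name rule showed further differences between these libraries. Orai3, a store-operated calcium channel subunit, had 22.5 TPM in DP (218 reads), 0.865 in PDGFRβ-S (10 reads) and 5.35 in DN (66 reads). Among sodium-potassium pump genes, 6 were at level between DP and DN and 4 were higher in DP with none lower, against 16.9% higher and 14.9% lower among all protein-coding genes. Among them Atp1b2 had 5.52, 1.35 and 0.932 TPM and Fxyd6 161.1, 42.6 and 72.9. Mcoln1, the lysosomal TRP relative, had 21.7, 3.29 and 5.19 TPM, and Clic1 had 287.4, 93.6 and 90.7. Pkd2, the polycystin channel, went the other way, with 5.45 TPM in DP against 13.9 in PDGFRβ-S and 15.1 in DN.

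Sln, which encodes the calcium pump inhibitor sarcolipin of muscle, had 2.01 TPM in DP against 0 in PDGFRβ-S and 50.5 in DN. Among connexins, Gja1 was level at 93.7, 89.8 and 91.9 TPM, whereas Gjb2 had 6.23 TPM in DP (58 reads) and 0.270 and 0.253 TPM (3 reads each) in the others.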
